A study of Mus musculus with 12 samples.

Results

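The 39 genes described here encode subunits of voltage-gated sodium channels (7 genes), voltage-gated calcium channels (15 genes) and potassium channels (17 genes). A gene was measured where the array's annotation gave a probe set exactly 1 symbol, that of the gene. This held for 38 of the 39 genes, read by 41 of the 21780 probe sets with a single symbol, and Cacnb3 was not analysed here. RNA from 12 mouse brain cell cultures was hybridised to Affymetrix whole-transcript arrays, 1 array per culture. The deposited values are on a log2 scale, so a difference of 1 is a 2-fold difference in signal, and the level of one probe set cannot be set against that of another.

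The tumour cultures are called glioma stem cells in the labels and were grown from brain tumours of 3 mouse lines that carry the viral receptor tv-a and lack the tumour suppressor Arf. The tumours were raised in adult brains by injected DF-1 cells, a chicken fibroblast line, that released the retrovirus RCAS-PDGFB-HA, which codes for a growth factor. The mGC1_GFAP group held 3 cultures from G/tv-a;Arf-/- mice, the mGC2_NES group 3 cultures from N/tv-a;Arf-/- mice and the mGC3_CNP group 3 cultures from C/tv-a;Arf-/- mice. Each line makes the receptor under a promoter of its own, those of Gfap, Nes and Cnp, so the cell of origin and the mouse line cannot be told apart among the tumour groups. The NSC group held 3 neural stem cell cultures from the subventricular zone (SVZ) of adult brain and labelled normal, 1 from each of the C/tv-a, N/tv-a and G/tv-a lines, and these too lacked Arf. All 12 cultures grew attached to a coated dish in stem cell medium without treatment. The labels do not say that the cultures of a group came from different animals, and p-values here cover only how far the cultures themselves varied.

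Sodium and calcium channels open when the membrane depolarises and let in the ions that carry action potentials, transmitter release and calcium signals. Potassium channels let potassium out and set the resting potential, the length of an action potential and the rate of firing. A pore is built by alpha subunits, and smaller subunits change its gating or bring it to the membrane. Oligodendrocyte precursors, unlike most glia, carry voltage-gated channels of all 3 kinds and receive synapses from neurons, whereas astrocytes are known for inward rectifier potassium channels that take up potassium.

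Genes that mark spermatids and are not used by brain cells (Prm2, Tnp1, Tnp2 and Odf1) read 5.60 to 7.42. The highest of these readings was taken as the background, so a mean below it can still hold signal. A mean at or below it does not show that the gene was expressed, and a difference from such a mean is treated here as a lower bound. Of the 41 probe sets, 21 had means above background in both the tumour and the NSC cultures, and 13 had means at or below it in all 4 groups. In the test described below, 17.6% of all probe sets were called higher in the tumour cultures and 19.2% lower. Markers of oligodendrocyte precursors averaged 12.43 to 12.60 in the tumour arrays and 9.72 to 10 in the NSC arrays, and 7 of 9 were higher in the tumour cultures. The others, Olig1 and Olig2, averaged 12.94 and 12.30 in the tumour and 12.98 and 12.44 in the NSC cultures and did not pass. Astrocyte markers averaged 7.69 to 8.29 in the tumour arrays and 10.18 to 10.55 in the NSC arrays, with 5 of 7 lower and 1 higher, and 4 of 6 neural stem cell markers were lower in the tumour cultures. Neuron markers averaged 7.55 to 8.12 in the tumour arrays and 7.53 to 8.16 in the NSC arrays, with 3 of 10 higher and 2 lower. Of these 10 markers, 5 had means above background in the tumour cultures and 4 in the NSC cultures. Rbfox3, a marker of mature neurons, lay below background at 6.90 in the tumour and 6.94 in the NSC cultures. The part of these shifts in cell state in the channel results was not tested. In such bulk cultures fewer cells of a type and less RNA per cell cannot be told apart.

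The first comparison asked which channel genes differ between tumour cultures and NSC cultures. In limma's test, with p-values adjusted over all 21780 probe sets by the Benjamini-Hochberg method and called under 0.05, 17 of the 38 genes were higher in the tumour cultures, 7 were lower and 14 did not pass. Of all probe sets, 36.7% were called, 17.6% higher and 19.2% lower. The median difference over the 38 genes was 0.32, against 0.007 over all probe sets. The genes were chosen with earlier results of these data known, so neither the counts nor this median test channel genes as a class. Sodium channel genes were higher in 3 of 7 cases and lower in 0, calcium channel genes higher in 7 of 14 and lower in 2, and potassium channel genes higher in 7 of 17 and lower in 5. A difference of 2-fold or more in a called gene was reached by Cacnb4, Kcna6, Kcnd2, Kcnq3, Cacna1d, Scn1a and Kcna4 among the higher genes and by Kcnc1, Cacna2d1 and Kcnj2 among the lower ones. In 20 of the 41 probe sets the 9 tumour arrays did not overlap the 3 NSC arrays, against 27.3% of all probe sets.

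**Figure D1:**
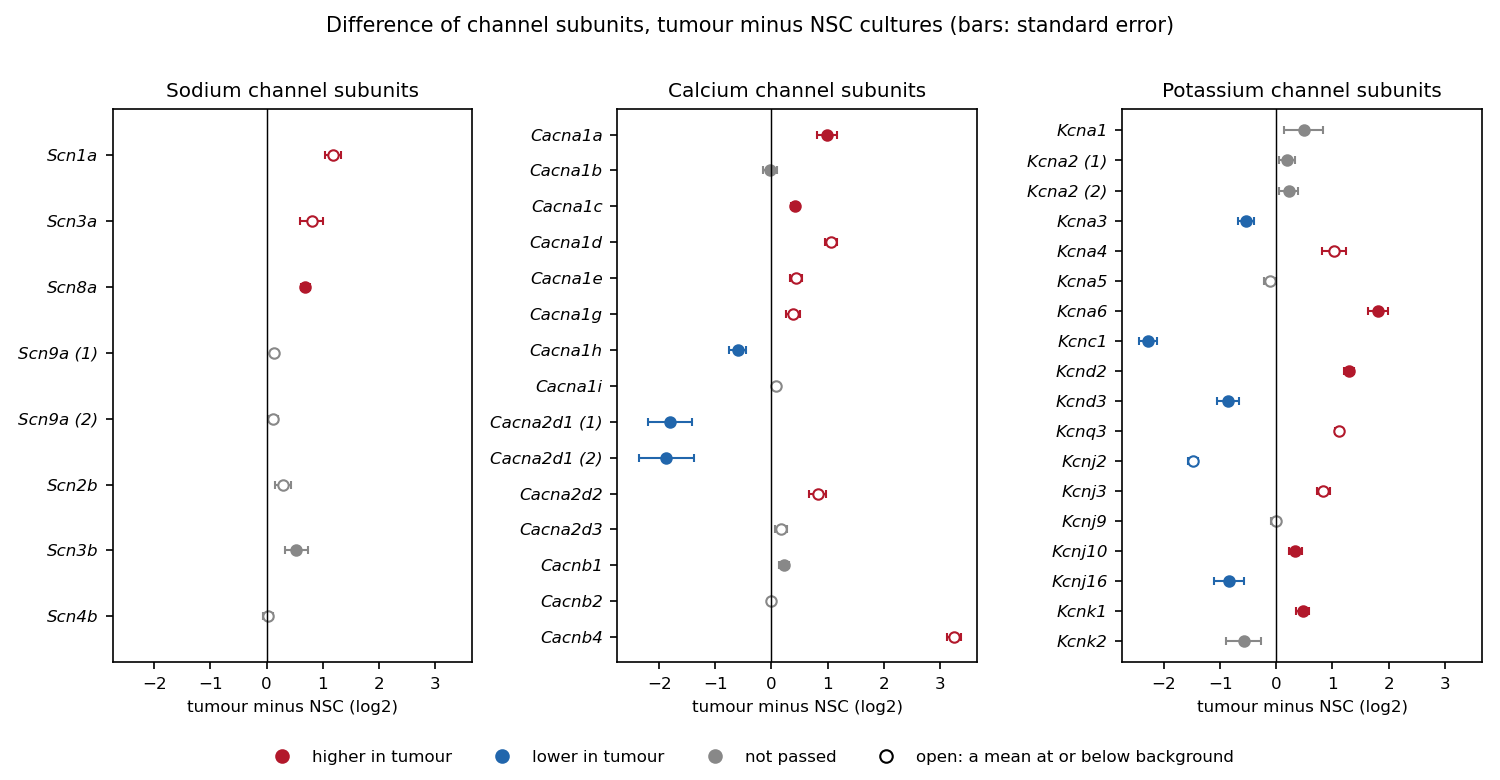
Difference of each channel probe set in tumour cultures minus NSC cultures (log2, horizontal axis), grouped by channel class, with bars of 1 standard error; open points mark a mean at or below background. Cacnb4 lies farthest to the right at 3.25 and Kcnc1 farthest to the left at -2.29.

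Pore-forming sodium channel genes were higher in the tumour cultures in 3 of 4 cases. Scn8a encodes the main sodium channel of mature axon initial segments and nodes of Ranvier. It read 9.39, 9.37 and 9.02 in mGC1_GFAP, 8.98, 8.92 and 8.99 in mGC2_NES and 8.79, 9.08 and 8.99 in mGC3_CNP, against 8.34, 8.43 and 8.34 in NSC. All 9 tumour arrays lay above all NSC arrays, and the difference was 0.69 ± 0.08 (standard error of limma's fit), 1.61-fold, with an adjusted p of 5.25e-05. Scn1a, the sodium channel of fast-spiking inhibitory neurons, read 6.19, 6.47 and 7.18 (lowest, median and highest) in the tumour arrays, against 5.30, 5.36 and 5.40 in NSC, a difference of 1.18 ± 0.15 with limma's adjusted p at 6.65e-05. Scn3a, known from the embryonic brain, read 5.71, 6.34 and 7.21 in the tumour arrays, against 5.53 to 5.67 in NSC, a difference of 0.80 ± 0.20 (adjusted p = 0.00753). Both genes were higher in every tumour array than in any NSC array. All group means of their own probe sets lay at or below background, so that these did not show expression on either side. A probe set that names both genes is given among the flagged results. Scn9a, the sodium channel of pain-sensing neurons, did not pass on either of its 2 probe sets, with differences of 0.13 ± 0.06 and 0.12 ± 0.09.

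The beta subunits, which tune the gating of the pore and act as cell adhesion molecules, passed in 0 of 3 cases in limma's test, with 1 at an unadjusted p under 0.05. That gene was Scn3b, at 8.38, 9.12 and 9.52 (lowest, median and highest) in the tumour arrays and 8.22, 8.43 and 8.62 in NSC. The difference was 0.53 ± 0.21 (adjusted p = 0.0722), and the lowest tumour arrays lay within the range of the NSC arrays. Without mGC3_CNP replicate 1, its lowest tumour array, the difference was 0.64 and limma's adjusted p 0.00543. Scn2b differed by 0.29 ± 0.15 and Scn4b by 0.02 ± 0.09, both with all group means at or below background.

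Scn1a, Scn3a and Scn9a lie with Scn2a and Scn7a in 1 cluster on chromosome 2, in the order Scn3a, Scn2a, Scn1a, Scn9a and Scn7a. Scn2a, a main sodium channel of unmyelinated axons and of oligodendrocyte precursors, is read by 14 probe sets, all of them higher in the tumour cultures, by 0.57 to 2.57. The one with the smallest p read 8.91 to 9.65 in the tumour arrays and 7.01 to 7.14 in NSC, a difference of at least 2.22 ± 0.10. Both means lay above background on only 2 of the 14. Of these, 1 read 8.41 to 8.69 in the tumour arrays and 7.93 to 8.01 in NSC, so its signal lay above background in the NSC cultures too. Scn7a, which encodes a channel-like protein that senses extracellular sodium, read 9.37 to 11.73 in the tumour arrays and 6.42 to 7.10 in NSC, a difference of at least 4.33 ± 0.39 (limma's adjusted p = 4.42e-06). Scn9a, which lies between Scn1a and Scn7a with no other coding gene on either side, did not pass. Within the cluster 4 of 5 genes were therefore higher in the tumour cultures, and 2 of these, Scn2a and Scn7a, had group means above background there.

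**Figure D2:**
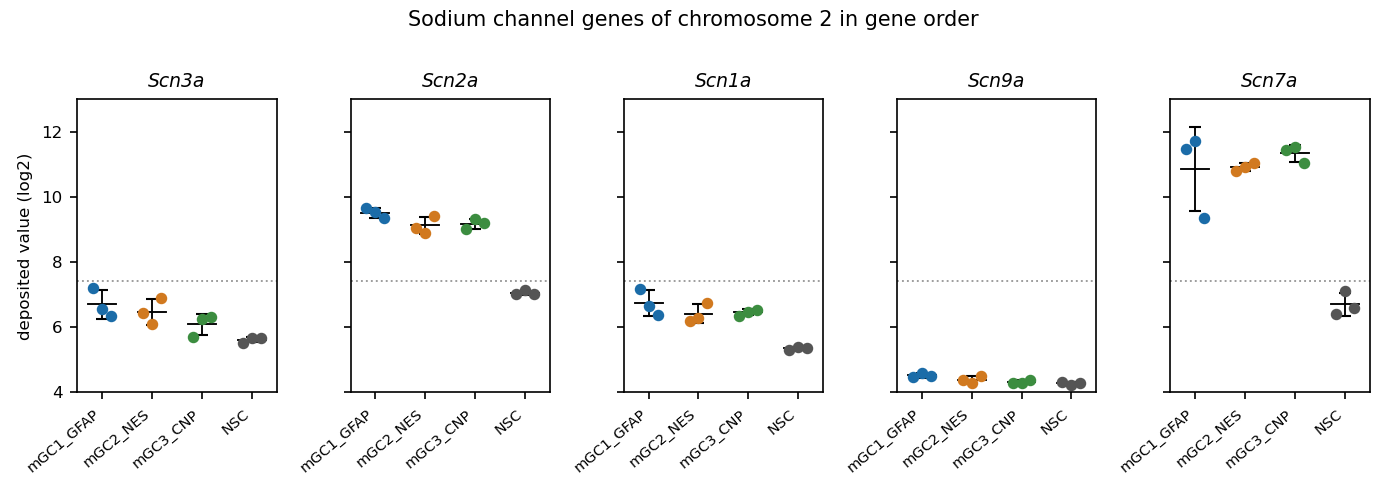
Deposited values (log2, vertical axis) of the 5 sodium channel genes of the chromosome 2 cluster in each array, with the mean and SD of each group (n = 3) and the 3 tumour groups left of NSC; the dotted line is the background of 7.42, and a gene with several probe sets is shown by the one with the smallest p. Scn2a and Scn7a lie above background in all 9 tumour arrays, and Scn9a stays below it in all 12 arrays.

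Genes of the pore-forming subunits of high-voltage-activated calcium channels were higher in the tumour cultures in 4 of 5 cases and lower in 0. Cacna1a, the pore of P/Q-type channels at nerve endings, read 9.73, 10.05 and 9.82 in mGC1_GFAP, 9.97, 10.04 and 9.99 in mGC2_NES and 10.06, 10.05 and 9.91 in mGC3_CNP, against 8.94, 9.59 and 8.37 in the C/tv-a, N/tv-a and G/tv-a NSC cultures. The tumour arrays were close together and all lay above the NSC arrays, which were spread more widely (SD 0.12 over the 9 tumour arrays and 0.61 over the 3 NSC arrays). The difference was 0.99 ± 0.18 (limma's adjusted p = 0.00115). Cacna1d, an L-type pore that opens at modest depolarisation, read 8.31, 7.99 and 7.97 in mGC1_GFAP, 8.13, 8.05 and 8.03 in mGC2_NES and 8.01, 8.19 and 8.04 in mGC3_CNP, against 7.03, 7.31 and 6.72 in NSC. All tumour arrays lay above background and all NSC arrays below it, a difference of at least 1.06 ± 0.11 (limma's adjusted p = 1.59e-05).

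Cacna1c, the other L-type pore, read 8.80, 9.03 and 9.27 (lowest, median and highest) in the tumour arrays and 8.52 to 8.66 in NSC, without overlap, and differed by 0.41 ± 0.07 (limma's adjusted p = 4.41e-04). Cacna1e, the R-type pore, was higher by 0.44 ± 0.11 with all group means at or below background, and limma's adjusted p was 0.0549 without the C/tv-a NSC culture. Cacna1b, the N-type pore that drives transmitter release, read 7.61 to 7.94 in the tumour arrays and 7.43 to 8.12 in NSC, a difference of -0.03 ± 0.12 that did not pass.

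The T-type pores, which open near the resting potential, split. Cacna1h fell in the tumour cultures to 8.48, 9.07 and 9.28 (lowest, median and highest), against 9.50, 9.54 and 9.74 in NSC, a difference of -0.60 ± 0.15 (limma's adjusted p = 0.00772). No tumour array reached the lowest NSC array. Cacna1g was higher by 0.38 ± 0.13 (limma's adjusted p = 0.0419), but its arrays overlapped, at 7.08 to 8.09 in the tumour arrays and 7.06 to 7.24 in NSC, and leaving out any 1 NSC culture gave adjusted p-values of 0.074 to 0.157. Cacna1i differed by 0.08 ± 0.06, did not pass and lay below background.

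Cacnb4 encodes a cytoplasmic beta subunit, which carries the pore-forming subunit to the membrane and shifts its voltage dependence. Its readings were 10.34, 10.49 and 10.23 in mGC1_GFAP, 10.61, 10.47 and 10.61 in mGC2_NES and 9.56, 10.20 and 10.12 in mGC3_CNP, against 6.93, 7.03 and 7.17 in NSC. Every tumour array lay far above background and every NSC array below it. The difference of 3.25 ± 0.12, or 9.51-fold, is therefore treated as a lower bound (limma's adjusted p = 2.83e-09). Of the other beta subunits, Cacnb1 differed by 0.22 ± 0.09 (adjusted p = 0.0705) and Cacnb2 by -0.01 ± 0.06. Cacnb1 lay above background in all 12 arrays, at 7.88 to 8.26 in the tumour arrays and 7.71 to 8.06 in NSC, and Cacnb2 below it.

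The RefSeq table of promoters holds 300 bases, 250 before and 50 after a start, for 31 of the 38 genes (45 starts, build GRCm38.p6). It has no entry for Scn3a, Scn3b, Cacna1a, Cacna1g, Cacna1h, Kcna1 or Kcnq3. Promoters were searched on both strands for ACAAAG, a core bound by SOX factors, CAGCTG, an E-box bound by basic helix-loop-helix factors, and TATAAA, the TATA box. ACAAAG was found in 24.4% of the 45 promoters, against 18.7% of all 32851 promoters of the table, CAGCTG in 35.6%, against 16.3%, and TATAAA in 6.67%, against 13.6%. The 45 promoters had a median of 62.7% G or C, against 52.7% for all promoters, and some belong to the same gene. The shares were adjusted for neither, and whether they differ was not tested. For Cacnb4 the table holds 3 starts. The first and the last of these are printed, since Cacnb4 had a wide gap between tumour and NSC cultures, and the starts of Kcnc1 and Kcnj2, which fell by 2-fold or more, follow. Capitals mark a match to one of the 3 motifs. The upstream start of Cacnb4 (chr2:52676094-52676393, minus strand) holds no match, and its bases are 78.3% G or C. The downstream start (chr2:52558562-52558861, minus strand), 49.7% G or C, holds ACAAAG at -213 and CAGCTG at -32 from the start. The promoter of Kcnc1 (chr7:46396218-46396517, plus strand) holds no match, and that of Kcnj2 (chr11:111065914-111066213, plus strand) holds CAGCTG at -206. The promoters of Kcna6 and Kcnd2, which were higher by 2-fold or more and are not printed, hold no match. A link between a motif and the direction of change was not tested.
Cacnb4, upstream start: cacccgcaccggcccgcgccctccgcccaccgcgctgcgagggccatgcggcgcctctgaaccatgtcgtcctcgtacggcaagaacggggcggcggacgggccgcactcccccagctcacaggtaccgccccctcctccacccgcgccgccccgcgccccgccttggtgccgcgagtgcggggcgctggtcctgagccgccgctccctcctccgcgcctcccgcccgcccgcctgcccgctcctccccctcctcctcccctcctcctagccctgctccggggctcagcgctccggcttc
Cacnb4, downstream start: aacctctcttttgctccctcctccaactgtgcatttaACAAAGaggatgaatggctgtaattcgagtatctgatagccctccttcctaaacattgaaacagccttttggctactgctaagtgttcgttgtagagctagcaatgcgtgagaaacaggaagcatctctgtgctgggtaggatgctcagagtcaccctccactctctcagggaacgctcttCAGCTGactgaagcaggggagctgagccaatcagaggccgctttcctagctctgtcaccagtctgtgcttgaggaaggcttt
Kcnc1: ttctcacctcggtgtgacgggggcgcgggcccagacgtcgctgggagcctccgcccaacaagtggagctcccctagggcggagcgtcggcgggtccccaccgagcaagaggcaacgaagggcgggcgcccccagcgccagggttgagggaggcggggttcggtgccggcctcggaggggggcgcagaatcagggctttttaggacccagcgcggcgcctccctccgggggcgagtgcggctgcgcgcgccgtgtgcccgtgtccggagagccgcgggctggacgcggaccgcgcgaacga
Kcnj2: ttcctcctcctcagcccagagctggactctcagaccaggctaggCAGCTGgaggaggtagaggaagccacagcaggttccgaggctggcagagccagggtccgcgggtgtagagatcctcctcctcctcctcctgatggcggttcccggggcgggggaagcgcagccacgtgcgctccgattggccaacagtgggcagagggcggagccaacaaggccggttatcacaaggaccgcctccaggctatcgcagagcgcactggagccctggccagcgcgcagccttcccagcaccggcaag
A match is a description of the letters, and the array values do not tell which of the 3 starts of Cacnb4 was used.

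The alpha2delta subunits, which sit outside the membrane and raise the number of channels at the surface, moved apart. Cacna2d1, the receptor of gabapentin, is read by 2 probe sets, and the first gave 8.62, 7.04 and 8.05 in mGC1_GFAP, 6.67, 6.79 and 8.48 in mGC2_NES and 7.63, 7.69 and 8.45 in mGC3_CNP, against 9.65, 9.47 and 9.43 in NSC. The second gave 6.47, 8.03 and 9.01 (lowest, median and highest) in the tumour arrays and 9.67, 9.92 and 10.05 in NSC. Cacna2d1 thus fell on both probe sets, by 1.80 ± 0.39 and 1.87 ± 0.49 on the log2 scale (limma's adjusted p = 0.00314 and 0.0102). The arrays did not overlap, but the spread among tumour cultures of each group was wide. On the first probe set the mGC2_NES mean, 7.31, lay below background, and on the second, 7.50, it lay above. Cacna2d2 read 7.26, 7.76 and 7.97 in the tumour arrays and 6.83 to 6.91 in NSC, a difference of at least 0.82 ± 0.15 (adjusted p = 9.92e-04). Cacna2d3 lay close to background on both sides and differed by 0.17 ± 0.10, which did not pass.

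**Figure D3:**
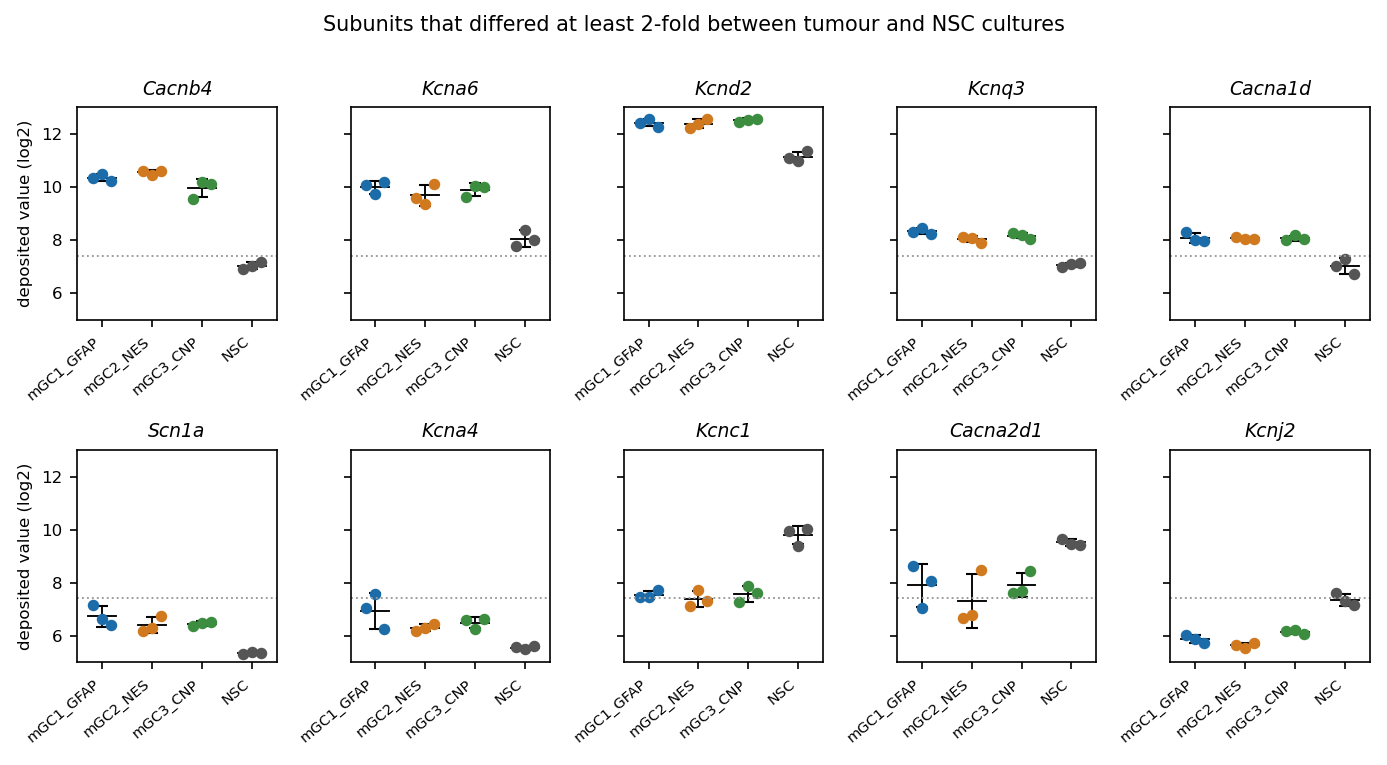
Deposited values (log2, vertical axis) of the called channel genes that differed 2-fold or more between tumour and NSC cultures, in each array with the mean and SD of each group (n = 3) and the 3 tumour groups left of NSC; the dotted line is the background of 7.42. In each panel the 9 tumour arrays lie on 1 side of the 3 NSC arrays.

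Voltage-gated potassium channel genes were higher in the tumour cultures in 4 of 10 cases and lower in 3. Kcna6, a delayed rectifier of the Shaker family, read 10.07, 9.73 and 10.18 in mGC1_GFAP, 9.58, 9.36 and 10.13 in mGC2_NES and 9.62, 10.05 and 10.02 in mGC3_CNP, against 7.77, 8.39 and 8.0 in NSC. All tumour arrays lay above all NSC arrays, and the difference was 1.81 ± 0.17, 3.5-fold (limma's adjusted p = 8.62e-06). Kcnd2, a pore of the fast A-type current that delays firing, read 12.43, 12.56 and 12.28 in mGC1_GFAP, 12.22, 12.38 and 12.57 in mGC2_NES and 12.44, 12.53 and 12.58 in mGC3_CNP, against 11.10, 10.99 and 11.36 in NSC. The tumour arrays spanned less than the gap to the NSC arrays, and the difference was 1.29 ± 0.09, 2.45-fold (limma's adjusted p = 8.85e-07). Kcnq3, a subunit of the M-current that restrains repeated firing, read 8.32, 8.47 and 8.23 in mGC1_GFAP, 8.13, 8.09 and 7.91 in mGC2_NES and 8.27, 8.18 and 8.06 in mGC3_CNP, against 6.99, 7.09 and 7.14 in NSC.

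Kcnq3 therefore lay above background in all tumour arrays and below it in all NSC arrays, a difference of at least 1.11 ± 0.07 (limma's adjusted p = 3.61e-07). Kcnq3, Scn8a and Cacna1i lie on chromosome 15, where the median of 831 probe sets was higher in the tumour cultures by 0.106, against -0.018 to 0.020 on the other 19 chromosomes tested. With every chromosome centred on the median deviation of its probe sets, the differences were 0.98 for Kcnq3 and 0.56 for Scn8a, both still called (limma's adjusted p = 8.50e-07 and 1.41e-04), and -0.05 for Cacna1i, which did not pass. Kcna4, a Shaker subunit that inactivates fast, was higher by 1.03 ± 0.21 (limma's adjusted p = 0.00194), at 6.20, 6.44 and 7.59 in the tumour arrays and 5.49 to 5.60 in NSC. Its arrays did not overlap, but all group means lay at or below background, and 1 array, mGC1_GFAP replicate 2, read above it.

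Kcnc1, a Shaw-family channel that lets neurons fire at high rates, had the largest fall among the genes above background on both sides. It read 7.46, 7.46 and 7.71 in mGC1_GFAP, 7.13, 7.71 and 7.32 in mGC2_NES and 7.26, 7.88 and 7.61 in mGC3_CNP, against 9.93, 9.40 and 10.04 in NSC. The tumour arrays lay near background and far below the NSC arrays, a difference of -2.29 ± 0.16, so that NSC signal was 4.88-fold higher (limma's adjusted p = 7.92e-07). Kcnd3, also a pore of the A-type current and the other Kcnd gene among the 38 genes, moved against Kcnd2. It fell to 9.61, 10.40 and 10.62 (lowest, median and highest) in the tumour arrays, against 10.96, 11.13 and 11.28 in NSC, a difference of -0.86 ± 0.19 without overlap (limma's adjusted p = 0.00375). Kcna3, known from lymphocytes and microglia, fell to 8.19, 8.69 and 8.85 in the tumour arrays, against 8.93, 9.03 and 9.61 in NSC, a difference of -0.54 ± 0.14 (limma's adjusted p = 0.00878). Centring each chromosome of each array on its median gave -0.32 and an adjusted p of 0.0908 for Kcna3.

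Kcna1 and Kcna2, which sit beside the nodes of myelinated axons, and Kcna5 did not pass. Kcna2 differed by 0.19 ± 0.15 and 0.22 ± 0.17 on its 2 probe sets, and Kcna5 by -0.11 ± 0.10, below background in all 4 groups. Kcna5, Kcna1 and Kcna6 are neighbours on chromosome 6 with no coding gene between them, and Kcna3 and Kcna2 are neighbours on chromosome 3. Of these 5 genes Kcna6 was higher, Kcna3 was lower and the others did not pass.

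Inward rectifiers pass potassium more readily into the cell than out of it and steady the resting potential. Among them 2 of 5 genes were higher in the tumour cultures and 2 lower. Kcnj10 encodes Kir4.1, the main channel by which astrocytes and oligodendrocytes take up potassium. It read 11.83, 11.75 and 11.73 in mGC1_GFAP, 11.85, 12.08 and 12.02 in mGC2_NES and 11.85, 11.85 and 11.72 in mGC3_CNP, against 11.56, 11.17 and 11.80 in NSC. The G/tv-a NSC culture lay within the range of the tumour arrays, and the difference was 0.34 ± 0.11 (limma's adjusted p = 0.0237). Without the N/tv-a NSC culture, the lowest array, it was 0.18 with an adjusted p of 0.142, and without the C/tv-a culture the adjusted p was 0.0547. Kcnj16, whose product Kir5.1 joins Kir4.1 in mixed channels, read 8.93, 9.54 and 7.97 in mGC1_GFAP, 10.39, 10.24 and 9.87 in mGC2_NES and 9.78, 10.37 and 10.34 in mGC3_CNP, against 10.34, 10.48 and 10.85 in NSC. The mGC1_GFAP arrays were the lowest, whereas some arrays of the other tumour groups overlapped NSC, and the difference was -0.84 ± 0.27 (limma's adjusted p = 0.0277). The adjusted p was 0.0657 without the N/tv-a NSC culture, 0.128 without the G/tv-a one, 0.0952 with the mouse line as a block and 0.167 with the tumour cultures as 1 group.

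Kcnj2, a strong inward rectifier that holds cells near the potassium potential, read 6.02, 5.87 and 5.72 in mGC1_GFAP, 5.64, 5.56 and 5.72 in mGC2_NES and 6.19, 6.22 and 6.06 in mGC3_CNP, against 7.62, 7.30 and 7.18 in NSC. It fell by 1.48 ± 0.09 on the log2 scale without overlap (limma's adjusted p = 2.32e-07), although the C/tv-a NSC culture was the only array above background. Kcnj2 and Kcnj16 are neighbours on chromosome 11, and both were called lower, Kcnj16 not under every alternative. Against the NSC culture of its line, Kcnj16 differed by -2.04 in mGC1_GFAP, -0.31 in mGC2_NES and -0.18 in mGC3_CNP, without a test. Kcnj3, a subunit of channels opened by G proteins, read 7.28, 7.23 and 7.62 in mGC1_GFAP, 6.50, 7.02 and 6.90 in mGC2_NES and 7.68, 7.89 and 8.0 in mGC3_CNP, against 6.38, 6.54 and 6.59 in NSC. The difference was 0.84 ± 0.12 (limma's adjusted p = 1.54e-04), with 1 mGC2_NES array within the NSC range and with mGC3_CNP as the one group with all arrays above background. Kcnj9, another G-protein-gated subunit, differed by -0.01 ± 0.08 and lay below background.

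**Figure D4:**
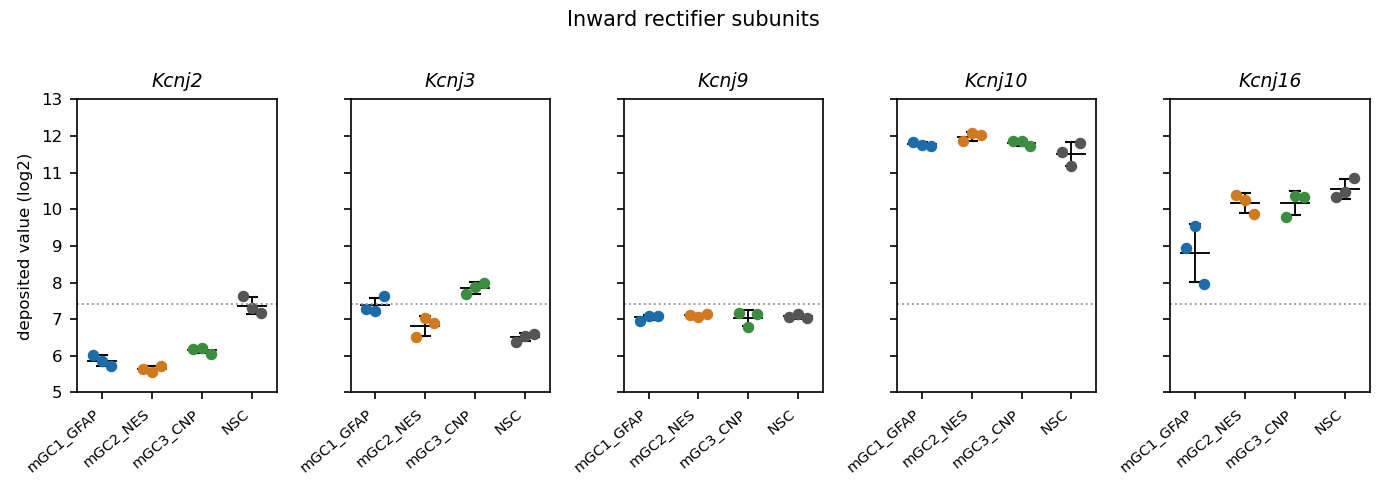
Deposited values (log2, vertical axis) of the 5 inward rectifier genes in each array, with the mean and SD of each group (n = 3) and the 3 tumour groups left of NSC; the dotted line is the background of 7.42. Kcnj3 lies higher in mGC3_CNP (7.68 to 8.0) than in mGC2_NES (6.50 to 7.02), and Kcnj16 lies lowest in mGC1_GFAP (7.97 to 9.54).

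Of the two-pore potassium channels, which leak potassium at rest, Kcnk1 was higher in the tumour cultures and Kcnk2 did not pass. Kcnk1 read 9.35, 9.89 and 10.22 (lowest, median and highest) in the tumour arrays and 9.20, 9.42 and 9.57 in NSC, a difference of 0.47 ± 0.12 (limma's adjusted p = 0.00981). Only mGC1_GFAP arrays overlapped NSC, and limma's adjusted p was 0.0661 without the N/tv-a NSC culture and 0.054 with the tumour cultures as 1 group. Kcnk2, a channel gated by stretch, lipids and heat, read 7.20 to 9.14 in the tumour arrays and 8.36 to 8.88 in NSC, a difference of -0.58 ± 0.31 (adjusted p = 0.172).

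The next comparisons asked whether channel genes differ between tumours begun in cells of different lines. Few were called, among the channel genes as among all probe sets. Between mGC1_GFAP and mGC2_NES limma called 0 of the 38 genes, while 6.13% of all probe sets were called. At an unadjusted p under 0.05 there were 10 of the 38 genes and 4479 of the 21780 probe sets. Between mGC1_GFAP and mGC3_CNP limma called 0, against 0.487% of all probe sets, with 9 genes and 2816 probe sets at an unadjusted p under 0.05. Between mGC2_NES and mGC3_CNP it called 1 gene, Kcnj3, lower in mGC2_NES, against 0.459% of all probe sets. Here 4 genes and 2900 probe sets had an unadjusted p under 0.05. A limma F test over the 3 tumour groups called 2 genes (5.26%), against 4.05% of all probe sets. These were Kcnj3 (adjusted p = 0.0195) and Kcnj2 (adjusted p = 0.0335). In the F test 9 genes and 4242 probe sets had an unadjusted p under 0.05. With 1 tumour array left out, the F test called Kcnj3 in 5 of 9 cases and Kcnj2 in 1 of 9. It called neither without mGC1_GFAP replicate 1, mGC2_NES replicate 3, mGC3_CNP replicate 2 or mGC3_CNP replicate 3, where limma's adjusted p was 0.0513 to 0.0555 for Kcnj3 and 0.0513 to 0.0884 for Kcnj2.

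Kcnj3 averaged 6.80 ± 0.27 in mGC2_NES and 7.86 ± 0.17 in mGC3_CNP (SD, n = 3 each), a difference of -1.05 ± 0.15 (limma's adjusted p = 0.0235), and the mGC1_GFAP mean lay between them at 7.37 ± 0.21. The arrays of mGC2_NES and mGC3_CNP did not overlap, and of the group means of Kcnj3 only that of mGC3_CNP lay above background. Without mGC2_NES replicate 3, mGC3_CNP replicate 2 or mGC3_CNP replicate 3 the adjusted p was 0.0702, 0.0757 or 0.106. Kcnj2 stayed below background in the tumour groups, with means of 5.87 ± 0.15 (mGC1_GFAP), 5.64 ± 0.08 (mGC2_NES) and 6.16 ± 0.08 (mGC3_CNP). Kcnj16 averaged 8.81 ± 0.80 in mGC1_GFAP and 10.17 ± 0.27 in mGC2_NES, a difference of -1.35 ± 0.35 that did not pass (limma's adjusted p = 0.054), and 10.16 ± 0.33 in mGC3_CNP. Every mGC1_GFAP array of Kcnj16 lay below every array of the other tumour groups.

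Some channel genes had a wide spread among cultures of 1 group. The SD within tumour groups of the 2 Cacna2d1 probe sets was 0.79 and 1.00, larger than in 99.3% and 99.7% of all probe sets. Kcna1 had an SD of 0.70, larger than in 99.0% of probe sets, Kcnk2 0.60 (98.6%), Kcnj16 0.52 (98.1%) and Kcna4 0.42 (97.0%). Cacna2d1 was highest in replicate 3 of mGC2_NES (8.48) and mGC3_CNP (8.45) and in replicate 1 of mGC1_GFAP (8.62). Kcna1 read 8.23, 9.36 and 7.55 in mGC1_GFAP, 8.35, 9.26 and 8.56 in mGC2_NES and 8.19, 9.30 and 8.21 in mGC3_CNP, against 7.97, 8.22 and 8.0 in NSC. The culture numbered 2 was the highest of each tumour group, and all 3 lay above every other array. Such an order of the 3 cultures numbered 2 above the other 6 tumour cultures was found in 765 probe sets (3.51% of all), against 1.31% for the cultures numbered 1 and 0.422% for those numbered 3. The difference of Kcna1 between tumour and NSC cultures, 0.49 ± 0.35, did not pass.

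**Figure D5:**
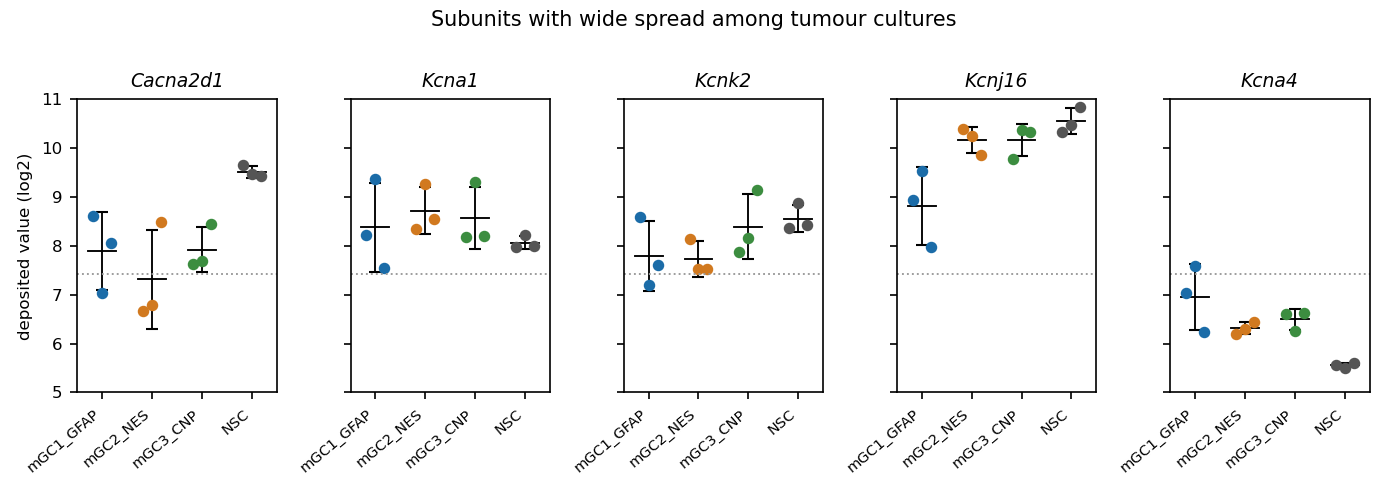
Deposited values (log2, vertical axis) of channel genes with a wide spread among tumour cultures in each array, with the mean and SD of each group (n = 3) and the 3 tumour groups left of NSC; the dotted line is the background of 7.42, and Cacna2d1 is shown by its first probe set. The tumour arrays of Cacna2d1 range over 6.67 to 8.62, against 9.43 to 9.65 in NSC, and Kcna1 has 1 high array in each tumour group.

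Other genes of these channel families and their partners were set beside the 38 genes. Of 72 further channel genes measured, 10 were higher in the tumour cultures, 12 were lower and 50 did not pass, with a median difference of 0.02. The share called was 30.6%, against 36.7% of all probe sets and 63.2% of the 38 genes. Both lists were chosen with earlier results of these data known. Besides Scn2a and Scn7a, the higher genes included Nalcn, the sodium leak channel, at 9.85 to 10.44 in the tumour arrays and 7.27 to 8.11 in NSC (a difference of 2.51 ± 0.17), and Kcnh5, an ether-a-go-go potassium channel, at 10.10 to 10.87 in the tumour arrays and 6.13 to 6.40 in NSC (at least 4.15 ± 0.11). Kcnmb4, a neuronal subunit of calcium-activated potassium channels, was higher by 1.43 ± 0.14. Cacng4 and Cacng5, neighbours on chromosome 11 whose products are mostly known as partners of AMPA receptors, moved apart, by 1.57 ± 0.11 and -2.11 ± 0.12. The 10 other inward rectifier genes measured were called in 0 cases, with 0 at an unadjusted p under 0.05.

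The lower genes included the two-pore channel Kcnk5 (-1.40 ± 0.10), the small-conductance calcium-activated channels Kcnn2 (-1.40 ± 0.25) and Kcnn3 (-0.98 ± 0.18), the M-current subunit Kcnq5 (-1.07 ± 0.10) and the ether-a-go-go related channels Kcnh2 (-0.89 ± 0.10) and Kcnh7 (-0.79 ± 0.12). Kcnn2 and Kcnh7 had all group means at or below background. The falls of Kcnk5, Kcnn3 and Cacng5, which ended below it in the tumour cultures, are treated as lower bounds. Kcnq5 fell where Kcnq3 was higher. Of 13 accessory proteins of potassium channels 3 were higher and 1 was lower (30.8% called, against 36.7% of all probe sets). Among them Dpp10, which speeds the A-type current of Kcnd2 and Kcnd3, read 9.49 to 9.82 in the tumour arrays and 5.33 to 6.29 in NSC (at least 3.87 ± 0.16). Of 7 partners and anchors of sodium channels 4 were higher and 1 was lower (71.4% called), among them Fgf11 (1.39 ± 0.12) and the anchor Ank2 (-0.90 ± 0.10). Between mGC1_GFAP and mGC2_NES, Kcnq5 was higher in mGC1_GFAP by 0.75 ± 0.11 (limma's adjusted p = 0.00844), the two-pore channel Kcnk10 by 0.62 ± 0.14 (0.0305) and Kcnh8 by 0.43 ± 0.09 on 1 of its 2 probe sets (0.0265).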

How the data were processed

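Expression was measured on 12 Affymetrix arrays. Per the submitters' processing notes, the authors made the deposited log2 values by RMA with Affymetrix Expression Console. The sources used here give no software version or summarisation level. RMA forces a common distribution on all arrays and so hides a shift common to most genes. Array medians lay between 7.60 and 7.66. Arrays hold no read depth, and their number limits the precision. Of 28270 probe sets, 21780 had exactly 1 symbol in the platform annotation, 1617 had several and 4873 were not listed.

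Groups came from the labels. limma 3.58.1 (R 4.3.3) was fitted to all 12 arrays for tumour cultures against NSC, with each tumour group weighted equally, and to the 9 tumour arrays for pairs of tumour groups. Two-sided p-values were adjusted by Benjamini-Hochberg over the 21780 probe sets and called under 0.05. Where a gene had several probe sets, counts of genes used the one with the smallest p. The procedure was tested on simulated data. The alternatives were other variance priors, array weights, other normalizations, a filter on low values, all probe sets, blocks by mouse line or replicate number, other sets of arrays, centring by chromosome and leaving out each array.

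The 39 genes, the other channel genes and the marker lists were chosen with earlier results of these data known. All 39 are reported. Of the other channel genes, the text names the 8 steepest rises and 8 steepest falls among those called without overlap, and any called between tumour groups. Scn2a and Scn7a are also named as members of the sodium channel cluster. Promoter sequences are from RefSeq.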

Additional observations from a re-analysis of the deposited data

Results flagged for a closer look

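Among the 9 tumour arrays, 41 probe sets were searched for an array far from the others, a search that by chance marks about 1 in 20. It marked 2. Cacnb4 was lowest in mGC3_CNP replicate 1, at 9.56, still above every NSC array. Kcna3 was lowest in mGC2_NES replicate 1, at 8.19, below every NSC array like the other tumour arrays.

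Kcnj3 differed between mGC2_NES and mGC3_CNP by -1.05 in limma's test, and since both groups are set against the same NSC cultures this is also the difference between their differences from NSC.

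Probe sets whose annotation names several sodium channel genes were used in no comparison. The one that names Scn3a and Scn1a read 7.11 to 8.45 in the tumour arrays and 6.25 to 6.42 in NSC, a mean difference of 1.36. The one that names Scn2a, Scn9a and Scn3a read 4.92 to 6.07 in the tumour arrays and 4.28 to 4.42 in NSC, a mean difference of 1.18. The one that names Scn9a and Scn3a read 5.66 to 6.58 in the tumour arrays and 4.87 to 5.30 in NSC, a mean difference of 1.06. All 3 were higher in every tumour array than in any NSC array, and which of the named genes they read was not tested.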

How the results depend on the processing

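In tumour cultures against NSC, the counts of 17 higher and 7 lower channel genes stayed within 1.5 times under every alternative, with 14 to 19 higher and 6 to 7 lower when 1 array was left out (6777 to 8114 of all probe sets called). The filter on low values kept 25 of the 38 genes. Of 25 called probe sets, 19 kept their call in every alternative in which they were tested, and those of Cacna1e, Cacna1g, Kcna3, Kcnj10, Kcnj16 and Kcnk1 did not. The 5 probe sets of Scn2b, Scn3b, Cacnb1 and Kcna2 (2 probe sets) passed only under some alternatives.

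Between pairs of tumour groups the counts were 0 to 2 genes, and in the F test 0 to 3. In mGC1_GFAP against mGC2_NES, 1 gene was lower with array weights, with the filter, with centring by chromosome, with the replicate block and with all 12 arrays. In the same comparison 1 gene was higher with repeated quantile normalization, with the replicate block and with all 12 arrays. The lower gene was Kcnj16 and the higher one Kcnj3 (limma's adjusted p = 0.0488 and 0.0317 with the replicate block). In mGC2_NES against mGC3_CNP, Kcnj2 joined Kcnj3, giving 2 lower genes, with an intensity trend, a robust prior, repeated quantile normalization, all probe sets or centring by the median deviation of each chromosome, the last added after the data were seen. The filter gave 0 there and 0 in the F test, since it left both genes out, and the F test with the replicate block gave 1, Kcnj3, with 0.0502 for Kcnj2. With array weights the F test gave 3, as Kcnj16 joined. Of all probe sets, mGC1_GFAP against mGC3_CNP gave 195 with array weights, 165 with all probe sets and 65 with all 12 arrays, and mGC2_NES against mGC3_CNP gave 164 with all probe sets. The cause of these shifts was otherwise not tested.

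With 1 array left out, mGC1_GFAP against mGC2_NES gave 0 to 1 higher and 0 to 1 lower genes (534 to 1619 of all probe sets), mGC1_GFAP against mGC3_CNP 0 and 0 (24 to 106), mGC2_NES against mGC3_CNP 0 higher and 0 to 2 lower (42 to 133), and the F test 0 to 2 (222 to 945). Tumour cultures with the same replicate number correlated by 0.002 to 0.254 in their deviations from the group means. All 3 pairs of mGC2_NES with mGC3_CNP were above 0.1, and the replicate block kept the call of Kcnj3 there (adjusted p = 0.0173). For mGC1_GFAP with mGC2_NES or mGC3_CNP 1 of 3 pairs was, and not every culture correlated best with its own number, so a pairing over all 3 groups was not shown.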
